A study of Mus musculus with 26 samples.

Results

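RNA sequencing of mesenteric arteries was compared between 3 libraries of mice with the Y198F change in pannexin 1 and 3 libraries labelled as controls of the S205A line. These 6 of the study's 26 libraries are the Y198F mutants and those S205A controls whose libraries have the same low share of ribosomal RNA. The library names of all 6 carry a number that begins with 22, as do those of S205A mutants 2 to 4, 9 libraries in all. The 3 labelled controls of the Y198F line and 14 further libraries do not carry it, and what the number stands for is not given in the sources used here. The share of ribosomal RNA in the counts was 0.111% ± 0.00355 (SD, n = 3) for Y198F mutants and 0.108% ± 0.0269 (SD, n = 3) for these controls, against 2.32% to 7.09% in the 17 other libraries. That share took part in choosing the controls and is given as a description.

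The Y198F mice carry the genotype label Y198F+/+, and the controls are labelled S205A-/-, that is, without the S205A change. All animals were males of 8 weeks, and controls are described only as littermates or wild type. The groups come from different mouse lines, so the mutation and the line cannot be told apart in this comparison. The labels call the libraries replicates of a genotype and mention vascular trees, without naming the animal behind each library. P-values therefore measure the spread between these libraries.

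Pannexin 1, encoded by Panx1, forms large-pore channels that let ATP out of the cell. Released ATP acts on purinergic receptors of neighbouring cells, and ectonucleotidases on the cell surface break it down to ADP, AMP and adenosine. In the wall of small arteries the channel is known from smooth muscle, where adrenergic stimulation opens it and the released ATP adds to constriction, and from endothelium. Src-family kinases have been reported to phosphorylate the tyrosine of Y198F, in the cytoplasmic loop. Phenylalanine in its place cannot be phosphorylated.

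The reference sequence around the changed residue is shown because the codon changed in the controls' line, the serine of S205A, lies in the same stretch. It is exon 4 sequence of Panx1 from GRCm39, chr9:14919207-14919302 on the minus strand, coding residues 186 to 217 of 426. Capitals mark the tyrosine codon changed in Y198F and the serine codon changed in S205A, whose first bases are 21 bases apart:
Panx1 residues 186 to 217: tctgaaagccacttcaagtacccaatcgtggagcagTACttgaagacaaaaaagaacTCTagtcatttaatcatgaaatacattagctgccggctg
Counts per gene cannot show which base a library carried at either codon, so the genotypes are taken from the labels.

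Panx1 itself (ENSMUSG00000031934, chr9:14913424-14956813, minus strand) had few reads in all 6 libraries. It had 60, 37 and 90 counts in Y198F mutants 1 to 3 and 16, 74 and 28 in the libraries labelled S205A control 1 to 3. Scaled by the normalized size of each library (CPM), the means were 3.37 ± 1.43 (SD, n = 3) against 2.28 ± 1.90 (SD, n = 3), and the groups overlapped. The log2 fold change was 0.57 (SE 0.637), with an edgeR quasi-likelihood p of 0.398 and a Benjamini-Hochberg adjusted p of 1. An exact two-sided permutation test gave 0.4, where the smallest p for 3 against 3 is 0.1. The library labelled S205A control 1 had 0.832 CPM when all 26 libraries were scaled together, inside the range of the 3 Panx1 knockout libraries, 0.593 to 1.36. Without that library the log2 fold change of Panx1 was 0.18, and without S205A control 2 it was 1.48. Exons of Panx1 overlap those of Gm68912, and the strand setting of the counting is not given in the sources used here. Panx2 had 0, 0 and 12 counts in Y198F and 6, 4 and 12 in the controls, and Panx3 had 0 counts in all 6 libraries, against a floor of 3 counts per library. Among the 25 tested genes within 5 Mb of Panx1, 0 had an unadjusted edgeR p under 0.05, and their median log2 fold change was -0.02.

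Total counts, in mega-counts (M), were 17.7 to 18.7 M for the mutants and 16.9 to 20.2 M for the controls. Processed pseudogenes took 0.514% of the counts in both groups, and mitochondrial genes took 5.90% ± 0.858 (SD, n = 3) for the mutants against 6.21% ± 0.952 (SD, n = 3) for the controls. The controls differed more among themselves than the mutants did. Chi-square per degree of freedom between pairs of libraries was 20.3 to 38.1 within Y198F and 46.1 to 158 within the controls, so no 2 libraries were counted as 1. The largest value was between the libraries labelled S205A control 1 and S205A control 2, which also stood apart in cell type markers.

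Summed over 18 endothelial genes, the controls had 1950, 13817 and 6782 CPM in the order 1, 2, 3, and the Y198F mutants had 7504, 7238 and 7676. The library labelled S205A control 1 was thus the lowest of the 6 in endothelial genes and S205A control 2 the highest, and the 3 controls had the same order in Panx1. Endothelial genes were present in all 6 libraries, von Willebrand factor (Vwf) between 291 and 3404 CPM, as were smooth muscle contractile genes, whose 18 members summed to 40777 to 73069 CPM. White adipocyte genes, from fat around the vessels, summed to 842, 1763 and 7645 CPM in Y198F and 814, 548 and 1836 in the controls, so Y198F mutant 3 had the most. In bulk arteries, fewer cells of a type and less RNA per cell cannot be told apart.

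**Figure D1:**
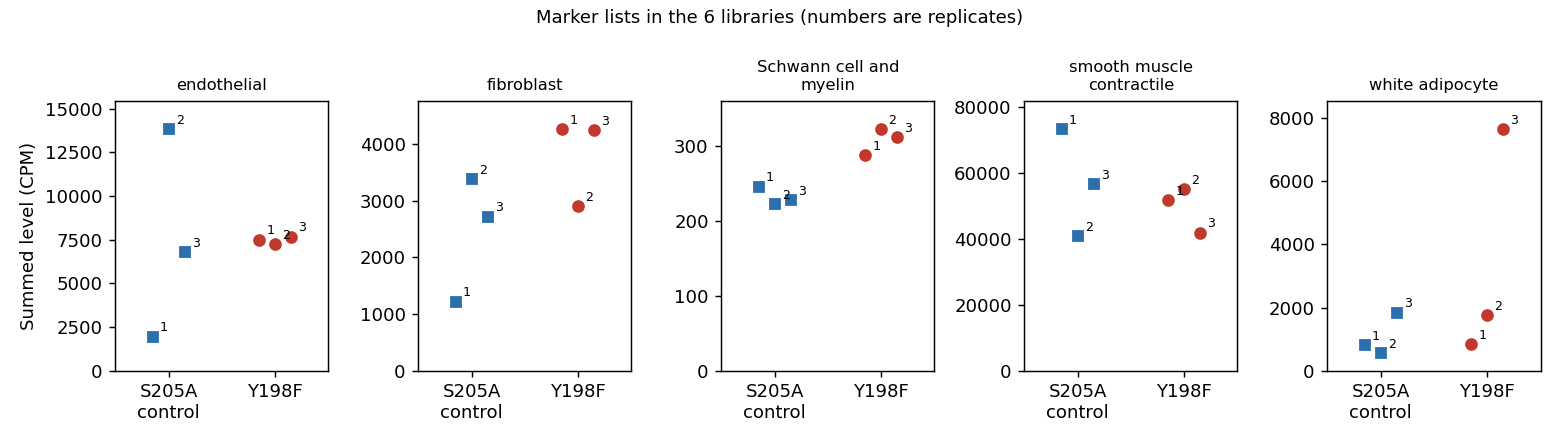
Summed expression of 5 cell type marker lists (CPM, linear axes from 0) in the 3 S205A controls (squares) and the 3 Y198F mutants (circles), each point 1 library with its replicate number. The controls span 1950 to 13817 CPM in endothelial genes, and Schwann cell and myelin genes are the list shown whose groups do not overlap.

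Of 15879 genes tested, 0 (0.00%) passed an edgeR adjusted p of 0.05, and the smallest adjusted p was 1. At an unadjusted p under 0.05 there were 492 genes (3.10%), 338 higher in Y198F (2.13%) and 154 lower (0.970%). The median log2 fold change over all tested genes was -0.01, and 48.1% of them were above 0. DESeq2 on the same 6 libraries called 38 of 17286 genes at an adjusted p under 0.05 (0.220%), 35 higher in Y198F (0.202%) and 3 lower (0.0174%). Of those 38 genes, 37 were tested by edgeR too, with unadjusted p from 0.000156 to 0.0111. Their groups did not overlap, beside 8.24% of all tested genes, and since the same 6 libraries chose them, nothing is read from that. The DESeq2 count rested on Y198F mutant 3: without that library it was 3, and Erdr1x and Erdr1y were the 2 of the 38 that still passed. Without Y198F mutant 1 it was 19, and without any other single library 40 to 55. These were partly other genes. Of the 38, 10 still passed without Y198F mutant 1 and 26 without Y198F mutant 2. With S205A control 1, 2 or 3 left out, the numbers still passing were 30, 19 and 24. The genes below are therefore described by their values and called leading genes, not changed genes.

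The 12 leading genes with higher values in Y198F were Plxdc2, Col5a3, Fbn1, Entpd2, Col28a1, Gpc3, Gm43305, Klf11, Cpxm1, Lgi4, Lama2 and Abca8a. Leading genes had the smallest edgeR p among named protein-coding or long noncoding genes whose mean log2 CPM was 1 or more and whose groups were fully separated. Groups were separated in 8.24% of all tested genes, 4.35% in this direction. Their log2 fold changes ran from 0.67 to 1.60 with standard errors of 0.118 to 0.317, and DESeq2 adjusted p-values from 0.000502 to 0.0195. Without Y198F mutant 3, DESeq2 called 0 of the 12. Without Y198F mutant 1, those it still called were Plxdc2, Col5a3 and Col28a1. Without S205A control 2 it no longer called Entpd2, Gpc3, Klf11, Cpxm1 and Lgi4.

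Col5a3, a chain of the fibril-regulating type V collagen, had 49.6, 68.5 and 92.1 CPM in Y198F mutants 1 to 3 and 28.5, 24.9 and 27.0 CPM in S205A controls 1 to 3. The lowest mutant lay above the highest control, at a log2 fold change of 1.39 (SE 0.216), an edgeR quasi-likelihood p of 0.000204 and a Benjamini-Hochberg adjusted p of 1. Fbn1 encodes fibrillin 1, the scaffold of elastic microfibrils, and had 163, 175 and 185 CPM against 112, 114 and 101. Each group was tight, and the log2 fold change of 0.67 (SE 0.118) was the smallest of the 12. Lama2, a laminin chain of the basement membranes of muscle and Schwann cells, had 24.6, 11.4 and 22.3 CPM against 5.01, 7.49 and 6.71. Y198F mutant 2 lay nearest to the controls, and the log2 fold change was 1.60. Col28a1, a collagen known from the surroundings of peripheral nerve glia, had 13.2, 15.6 and 14.5 CPM against 6.99, 4.91 and 6.54, a log2 fold change of 1.23.

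Other leading genes act at the cell surface or are secreted. Plxdc2, a transmembrane protein with a plexin domain, had the smallest p of all: 19.9, 16.9 and 23.1 CPM in Y198F against 6.0, 8.63 and 7.89 in the controls, a log2 fold change of 1.41 (SE 0.214, edgeR quasi-likelihood p 0.000156, Benjamini-Hochberg adjusted p 1). Gpc3 encodes glypican 3, a heparan sulphate proteoglycan of the membrane, with 34.4, 25.3 and 37.3 CPM against 13.9, 14.1 and 17.96. Its log2 fold change was 1.08 (SE 0.192). Lgi4 is secreted and is needed for the myelination of peripheral nerve, with 12.2, 13.99 and 13.99 CPM against 6.94, 3.66 and 4.59. Its exons overlap those of Fxyd3, as those of Fbn1 overlap Gm9913, so part of these counts could belong to the other gene.

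Abca8a, a lipid transporter of the ABC family, had 101, 69.0 and 106 CPM against 39.5, 31.8 and 52.2. Klf11, a Krüppel-like transcription factor, had 44.5, 62.5 and 49.0 CPM against 31.2, 19.6 and 24.2. Both were higher in all 3 mutants than in any control, with log2 fold changes of 1.16 and 1.06. Cpxm1, a secreted carboxypeptidase-like protein, had the lowest levels of the 12, with 10.1, 8.60 and 10.6 CPM against 2.77, 3.18 and 4.64. The noncoding gene Gm43305 had 20.03, 19.3 and 17.2 CPM against 5.37, 7.73 and 10.1.

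**Figure D2:**
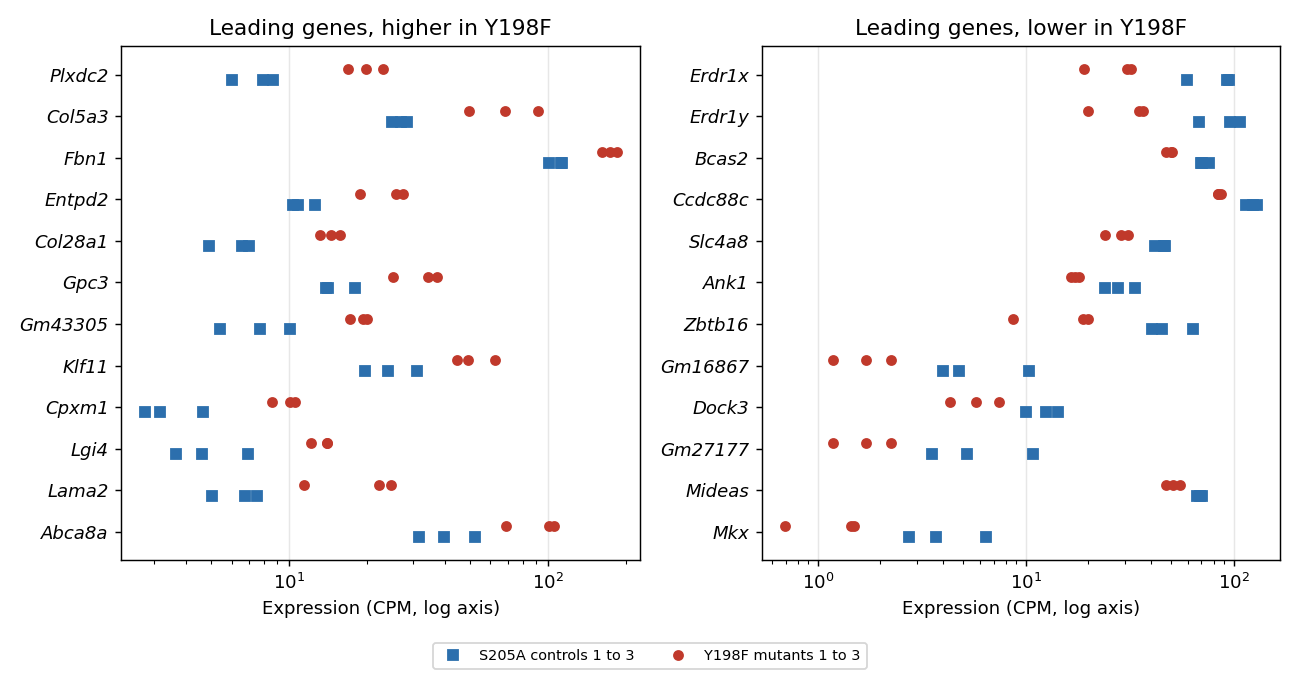
Expression (CPM, log axis) of the 12 leading genes higher in Y198F (left) and the 12 lower in Y198F (right), each point 1 library, squares for S205A controls 1 to 3 and circles for Y198F mutants 1 to 3. The groups do not overlap for any gene, since the rule for leading genes asked for it; Col5a3 spans 49.6 to 92.1 CPM in Y198F and 24.9 to 28.5 CPM in the controls.

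Entpd2 is the leading gene closest to the channel's own pathway. It encodes an ectonucleotidase that turns extracellular ATP into ADP, known in vessels from cells of the outer wall and in nerves from glia. It had 25.9, 18.7 and 27.5 CPM in Y198F and 10.3, 10.8 and 12.6 CPM in the controls. The log2 fold change was 1.09 (SE 0.193), with an edgeR quasi-likelihood p of 0.000442, a Benjamini-Hochberg adjusted p of 1 and a DESeq2 adjusted p of 0.0155. Its exons overlap those of Npdc1, so the reads of these genes cannot be fully separated.

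The list of purinergic receptors and ectonucleotidases had 15 tested members of 19. At an unadjusted edgeR p under 0.05, 2 were higher in Y198F and 1 lower, beside 2.13% and 0.970% of all tested genes, and the list's median log2 fold change was 0.11, or 0.03 to 0.21 over the alternatives. Besides Entpd2 these were the adenosine receptor Adora2a and adenosine deaminase, Ada, which removes adenosine. Adora2a was scarce, with 1.71, 1.01 and 2.73 CPM in Y198F and 0.365, 0 and 0.224 in the controls. The count of higher members was 1 without Y198F mutant 3 and 3 without S205A control 3, where 1.16% and 2.25% of all tested genes were higher. The count of lower members was 0 without either of those libraries and 2 without S205A control 1. Ada had 8.53, 9.03 and 6.81 CPM against 14.3, 9.95 and 13.8, a log2 fold change of -0.64. Entpd1, the main ectonucleotidase of the vessel lumen and the most abundant of the 3 enzymes described here, had 305, 402 and 342 CPM against 432, 409 and 397, with overlapping groups. The ATP-gated channel P2rx4 had 25.3, 27.2 and 27.8 CPM against 21.1, 24.4 and 21.1, a log2 fold change of 0.27 with an unadjusted edgeR p of 0.0801.

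Other genes around the channel had no member with an unadjusted edgeR p under 0.05. That held for 7 tested pannexins and connexins, 15 kinases and caspases that act on pannexin 1, 12 adrenergic receptors and genes of noradrenaline handling, and 14 potassium channels of arterial muscle. Gja4, a connexin of the arterial wall, had 458, 446 and 430 CPM in Y198F and 456, 422 and 497 in the controls. Its endothelial relative Gja5 had 309, 385 and 320 CPM against 92.1, 792 and 295, so the controls spanned the mutants on both sides, in the order of their endothelial sums. Of 18 tested calcium and TRP channel genes, 1 had an unadjusted p under 0.05, beside 3.10% of all tested genes. It was Piezo2, a mechanosensitive channel of sensory nerve endings, with 2.92, 2.62 and 4.93 CPM against 1.51, 0.779 and 1.57.

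Fibroblast genes had a median log2 fold change of 0.93. All 12 members were tested, and 11 had higher values in Y198F, 5 of them at an unadjusted edgeR p under 0.05, beside 2.13% of all tested genes. Of the 12, 4 were higher in every mutant than in every control, beside 4.35% of all tested genes. Pdgfra, the PDGF receptor that marks fibroblasts, had 30.4, 13.5 and 34.6 CPM in Y198F and 7.10, 11.1 and 8.78 in the controls, a log2 fold change of 1.54 (SE 0.362). Fbln1, a matrix glycoprotein, had 166, 74.0 and 142 CPM against 27.4, 56.2 and 48.7. In both genes Y198F mutant 2 lay lowest among the mutants and close to the controls.

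Dcn, the collagen-binding proteoglycan decorin, had 552, 235 and 496 CPM against 99.2, 171 and 209. The actin-severing protein gelsolin, Gsn, had 1716, 1165 and 1809 CPM against 656, 708 and 1027. DESeq2 called these 4 fibroblast genes, with adjusted p-values from 0.0110 to 0.0456. It called 0 of them without Y198F mutant 1, and 0 without Y198F mutant 3. Dcn and Gsn were also lost without S205A control 2, and Fbln1 and Pdgfra without S205A control 3. The remaining members were not alike: Cd34, Ly6a, Pi16 and Mfap5, which mark adventitial progenitor fibroblasts but partly also endothelium, had log2 fold changes from -0.17 to 0.22. In Cd34 the controls had 111, 779 and 442 CPM, again in the order of their endothelial sums. With each library left out in turn, 4 to 7 fibroblast genes were higher at an unadjusted p under 0.05. In these fits 1.16% to 3.20% of all tested genes were higher at that p. Without S205A control 1, 1 fibroblast gene was lower.

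Summed over the list, fibroblast genes had 4254, 2904 and 4244 CPM in Y198F and 1216, 3376 and 2718 in the controls, and the groups overlapped. The library labelled S205A control 1 was the lowest. How far this sum accounts for the values of single matrix genes was not tested.

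Collagens gave a mixed picture. Of 15 tested, 4 were higher at an unadjusted edgeR p under 0.05 and 0 lower, beside 2.13% and 0.970% of all tested genes, and the list's median was 0.19. These were the fibrillar collagens Col3a1, Col1a2 and Col1a1 and the fibril-associated Col14a1. Col3a1 had 1250, 1069 and 1260 CPM in Y198F and 830, 562 and 803 in the controls, a log2 fold change of 0.71. Col14a1 had 119, 68.8 and 128 CPM against 35.1, 26.2 and 59.2, a log2 fold change of 1.39, and was the member that DESeq2 called. With single libraries left out, that call held without Y198F mutant 2 and without S205A control 3, and was lost otherwise. The basement membrane collagens, which muscle and endothelium make, overlapped between the groups: Col4a2 had 1407, 1761 and 1419 CPM against 2026, 1232 and 1550. Without S205A control 1 the count of higher collagens was 7 and the median 0.38. Without S205A control 2 they were 3 and -0.01, and 1 collagen was lower. Without Y198F mutant 1 or mutant 3 the count was 2. With each library left out, 1.16% to 3.20% of all tested genes were higher at that p.

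Of 13 elastic fibre genes, Fbn1 and the microfibril-associated Mfap4 were the 2 higher at an unadjusted edgeR p under 0.05, beside 2.13% of all tested genes. Mfap4 had 97.6, 30.6 and 93.4 CPM in Y198F and 15.2, 29.1 and 30.2 in the controls, so Y198F mutant 2 was hardly above the highest control. The count of 2 was 1 without Y198F mutant 1 or S205A control 1, and 3 without Y198F mutant 2 or S205A control 2. Without Y198F mutant 3 or S205A control 1, 1 member was lower. With each library left out, 1.16% to 3.20% of all tested genes were higher at that p. Elastin itself, Eln, the most abundant of them, had 7198, 6658 and 4545 CPM against 3751, 5476 and 3901, with overlapping groups.

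**Figure D3:**
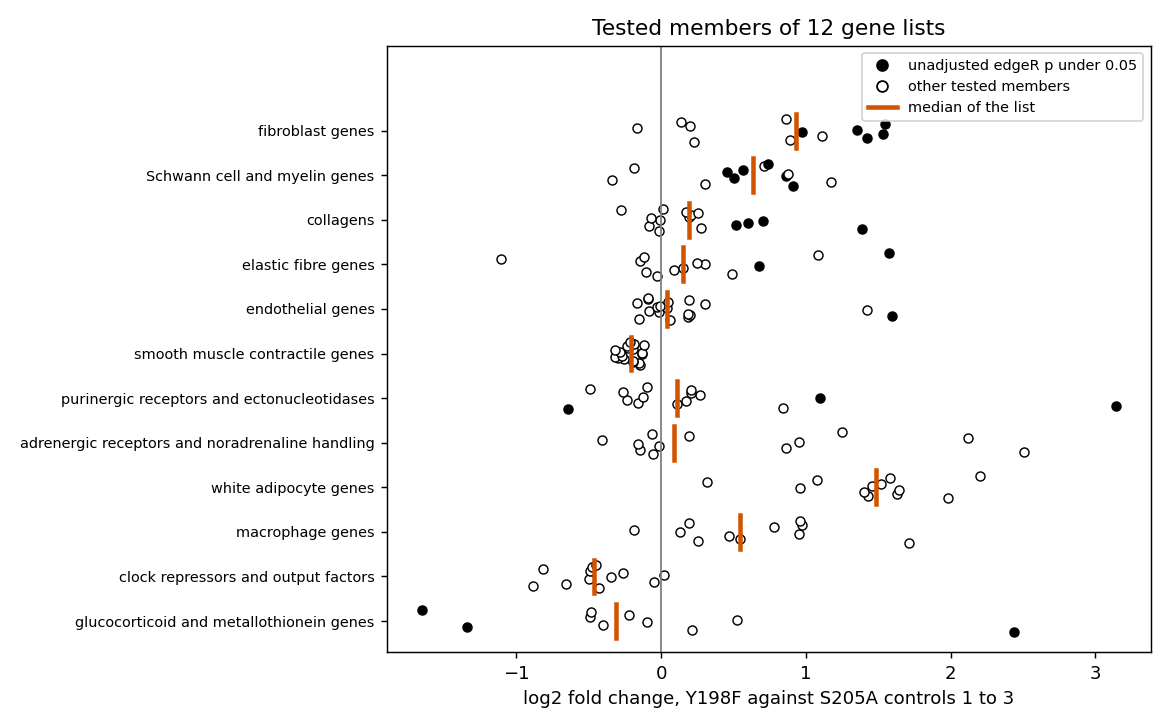
Log2 fold change of each tested member of 12 gene lists, Y198F against S205A controls 1 to 3. Each circle is 1 gene, filled where the unadjusted edgeR p was under 0.05, and the bar is the list's median: 0.93 for fibroblast genes, 0.64 for Schwann cell and myelin genes and -0.21 for smooth muscle contractile genes.

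Schwann cell and myelin genes mark the glia of the perivascular nerves. All 12 members were tested, 6 were higher at an unadjusted edgeR p under 0.05 and 0 lower, beside 2.13% and 0.970% of all tested genes. The list's median log2 fold change was 0.64. Of the 12, 7 were higher in every mutant than in every control, beside 4.35% of all tested genes. Pmp22, a protein of compact peripheral myelin that fibroblasts also make, had 109, 108 and 119 CPM in Y198F and 80.7, 61.2 and 85.4 in the controls, a log2 fold change of 0.57 (SE 0.145). Sox10, the transcription factor that defines the lineage, had 13.5, 15.2 and 18.2 CPM against 11.6, 6.83 and 9.56.

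Mbp, the myelin basic protein gene, had 22.9, 18.5 and 21.3 CPM against 16.7, 13.5 and 14.04. Its groups were fully separated, but by less than the difference between the highest and lowest library of either group. Prx and Mal, further genes linked to myelin, had log2 fold changes of -0.19 and -0.34. DESeq2 called 0 of the 12 at an adjusted p under 0.05. Summed over the list, Y198F had 288, 322 and 312 CPM and the controls 246, 222 and 228. The groups did not overlap in this sum. The count of 6 members at an unadjusted edgeR p under 0.05 was 3 without Y198F mutant 2, Y198F mutant 3 or S205A control 2, and 2 without S205A control 3. Without S205A control 1 it was 7, with 1 member lower. With each library left out, 1.16% to 3.20% of all tested genes were higher at that p.

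Smooth muscle contractile genes lay slightly lower in Y198F. All 18 tested members had negative log2 fold changes, with a median of -0.21, and 0 had an unadjusted edgeR p under 0.05. Lmod1, an actin-nucleating protein of the contractile apparatus, had 887, 936 and 848 CPM in Y198F and 1405, 768 and 1159 in the controls. The library labelled S205A control 1 had the highest value of the 3 controls in 18 of 18 members, and without it the list's median was 0.01. Endothelial genes had a median of 0.04, which became -0.39 if S205A control 1 was left out and 0.77 if S205A control 2 was.

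The 12 leading genes with lower values in Y198F were Erdr1x, Erdr1y, Bcas2, Ccdc88c, Slc4a8, Ank1, Zbtb16, Gm16867, Dock3, Gm27177, Mideas and Mkx. Their log2 fold changes ran from -1.92 to -0.42, and DESeq2 called 3 of them. Non-overlap in that direction held for 3.89% of all tested genes. Erdr1x and Erdr1y are near-identical copies on the sex chromosomes, so the split of reads between them is uncertain. Erdr1x had 19.0, 31.9 and 30.8 CPM in Y198F and 94.8, 59.7 and 93.0 in the controls, a log2 fold change of -1.60 (SE 0.256, edgeR quasi-likelihood p 0.000351, Benjamini-Hochberg adjusted p 1) and a DESeq2 adjusted p of 0.000175. It was the gene with the smallest DESeq2 p, and it still passed in DESeq2 with each of the 6 libraries left out.

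Zbtb16 encodes the zinc finger factor PLZF, a known target of the glucocorticoid receptor. It had 8.64, 19.98 and 18.9 CPM in Y198F and 63.6, 40.3 and 45.4 in the controls, a log2 fold change of -1.65 with a DESeq2 adjusted p of 0.00316. Without Y198F mutant 3, DESeq2 did not call it. In the list of 10 tested glucocorticoid and metallothionein genes, 2 were lower and 1 higher at an unadjusted edgeR p under 0.05, beside 0.970% and 2.13% of all tested genes. Fkbp5, another such target, had 5.06, 10.3 and 19.0 CPM against 22.2, 36.9 and 28.2, a log2 fold change of -1.34. The 1 higher member was Angptl4, described below, with a log2 fold change of 2.44. Klf9 had 216, 256 and 269 CPM against 396, 270 and 312, and its highest mutant lay just under its lowest control. Of 12 clock repressors and output factors, which follow the time of day, 11 had negative values, 0 with an unadjusted p under 0.05. Their median was -0.46, or -0.10 without S205A control 3, -0.19 without Y198F mutant 1 and -0.92 without Y198F mutant 3. Times of dissection are not given in the sources used here.

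Gm16867 and Gm27177 lie on chromosome 14, and their exons overlap those of Entpd4 and Entpd4b, a pair of near-identical genes for an intracellular nucleotidase. Entpd4 had 20.6, 26.8 and 26.1 CPM in Y198F and 65.7, 36.7 and 36.4 in the controls, a log2 fold change of -0.92, which was -0.57 without S205A control 1. Entpd4b had a log2 fold change of -0.88, and the counts of the 4 genes cannot be told apart. Mkx, a homeobox factor of tendon and connective tissue, had the lowest levels, with a log2 fold change of -1.82. The leading genes Bcas2, a splicing factor, and Mideas, part of a histone deacetylase complex, had small standard errors and log2 fold changes of -0.55 and -0.42.

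DESeq2 also called Angptl4, Pnpla3, Vtn and Gdf10 among its 10 genes of smallest p. Angptl4, an inhibitor of lipoprotein lipase that fasting and glucocorticoids induce, had 24.4, 49.7 and 59.4 CPM in Y198F and 15.96, 5.27 and 3.30 in the controls. Its log2 fold change was 2.44, and 3.38 without S205A control 1. Pnpla3, a lipase of lipid droplets, had 11.6, 17.0 and 40.9 CPM against 4.59, 3.00 and 6.94. The highest value was in Y198F mutant 3, the library with the most adipocyte RNA, and the log2 fold change was 2.26, or 1.56 without it. Vtn, the plasma and matrix protein vitronectin, had 10, 13 and 74 counts against 0, 0 and 0, at least 10.3-fold higher over a floor of 3 counts per control library, or at least 3.7-fold without Y198F mutant 3. Gdf10, a secreted BMP-family factor, had 61.3, 41.4 and 65.7 CPM against 12.7, 19.2 and 29.3. The part of adipocyte RNA in these values was not tested.

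White adipocyte genes had the highest median of the lists shown, 1.49, with 12 of 12 members higher in mean and 0 at an unadjusted edgeR p under 0.05. Adipoq, the adipocyte hormone adiponectin, had 15.3, 47.3 and 264 CPM in Y198F and 21.5, 10.7 and 50.2 in the controls. The list's median ranged from 0.10 to 2.36 over the alternatives, so its size was set by single libraries.

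The authors' deposited table for Y198F was compared with these counts. Its log2 fold changes for 18991 genes equalled those recomputed against all 4 S205A controls, with a largest difference of 0.00016, whereas those against the labelled Y198F controls differed by a median of 0.270. The authors' deposited table lists 3 genes past an adjusted p of 0.05: Dynlt1b, Twist2 and 1700008B11Rik. Twist2, a transcription factor of fibroblasts and other mesenchymal cells, had 3.63, 2.24 and 2.41 CPM in Y198F and 0.365, 0.959 and 0.392 in S205A controls 1 to 3. That was 66, 42 and 45 counts against 7, 16 and 7, with an edgeR log2 fold change of 2.27 (SE 0.575) and an unadjusted quasi-likelihood p of 0.00412. Dynlt1b, a dynein light chain with near-identical copies, had 42.2, 34.2 and 47.6 CPM against 27.9, 24.3 and 27.3, a log2 fold change of 0.64. The noncoding gene 1700008B11Rik had 0, 4 and 0 counts against 21, 23 and 8, too few to pass the filter of the edgeR fit. These 3 genes did not overlap between the groups, beside 8.24% of all genes tested by edgeR. The deposited comparison includes the same 6 libraries, so nothing is read from that separation. DESeq2 on the 6 libraries called 0 of the 3.

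S205A mutants 2 to 4, whose library names carry the same number, allow the Y198F arteries to be set beside those of another pannexin 1 mutation. In one edgeR fit of the 9 libraries, Y198F and S205A mutants differed in 0 of 16726 genes at an adjusted p of 0.05 (0.00%). At an unadjusted p under 0.05, 176 genes were higher in Y198F (1.05%) and 200 lower (1.20%). The 12 leading genes higher in Y198F had log2 fold changes from 0.46 to 2.61 in the S205A mutants against the same 3 controls. Against the S205A mutants, Y198F values of these genes ran from -1.14 to 0.84, and Gm43305 was the 1 gene above 0. Both mutant groups are thus set against the same 3 libraries, and their values are not independent. The genes were chosen for low values in these 3 controls, so high values are built into the range of the S205A mutants.

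The 12 leading genes lower in Y198F had log2 fold changes of -0.79 to -0.11 in the S205A mutants against those controls, and of -1.55 to -0.08 in Y198F against the S205A mutants. These genes were chosen for low values in the same 3 Y198F libraries beside high values in the same 3 controls. Low values are therefore built into both ranges. At an unadjusted edgeR p under 0.05, 6 of them were lower in Y198F than in the S205A mutants, beside 1.20% of all tested genes, and nothing is read from that count. Erdr1x had a log2 fold change of -1.18 between the mutants and Gm16867 one of -1.55, and Zbtb16, with -0.86, was not among the 6. All had an adjusted p of 1.00 in edgeR.

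**Figure D4:**
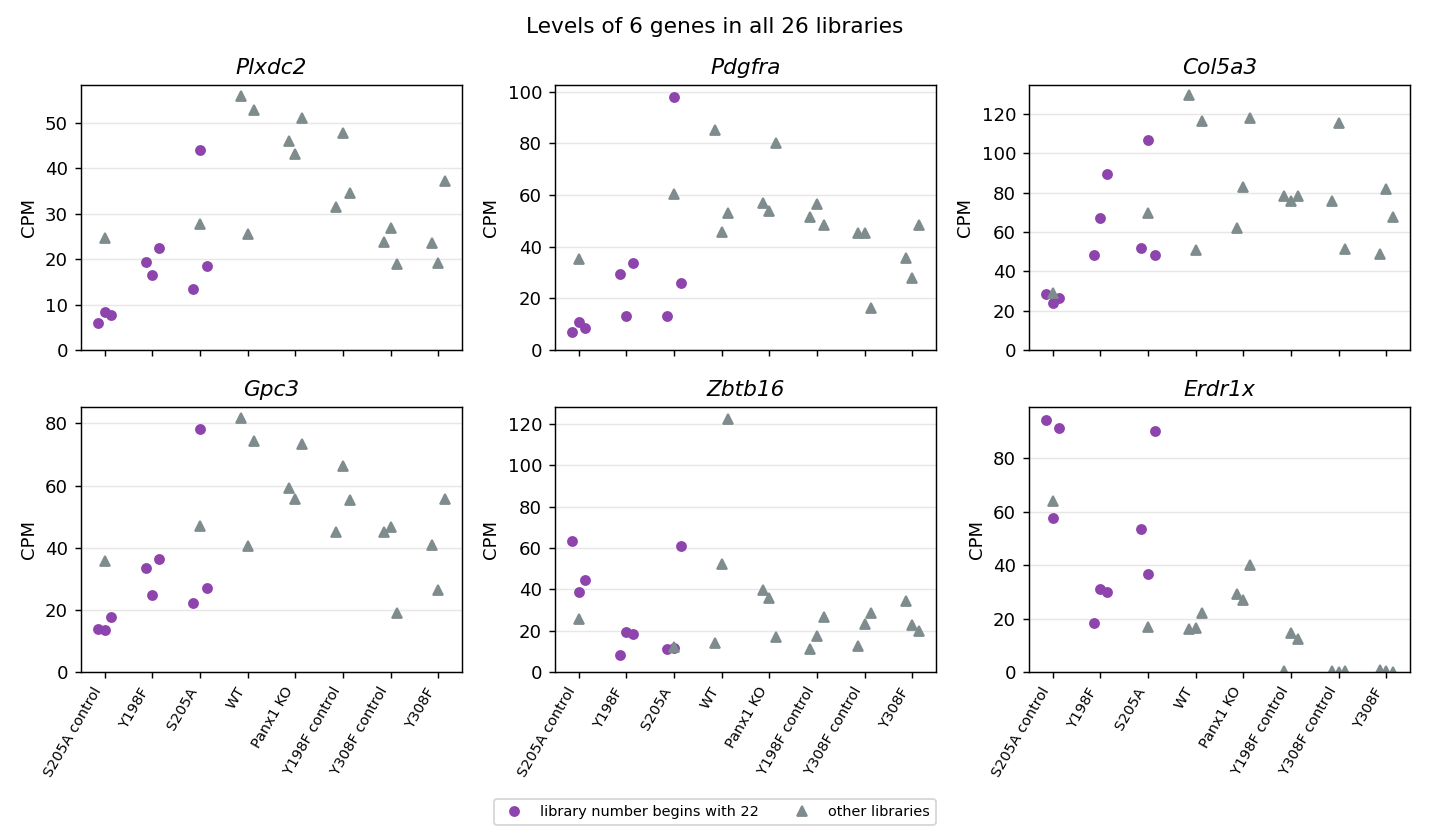
Expression (CPM, linear axes from 0, all 26 libraries scaled together) of 6 genes by labelled group, each point 1 library, circles where the library number begins with 22 and triangles for the others. S205A controls 1 to 3 are lowest in Plxdc2, at 5.98 to 8.31 CPM, while the Y198F mutants lie between 16.5 and 22.4 CPM and the labelled Y198F controls between 31.6 and 47.8 CPM.

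Across all 26 libraries, Plxdc2 and Pdgfra had higher levels in each other group than in Y198F, apart from S205A controls 1 to 3. Plxdc2 had 19.4 CPM ± 2.98 (SD, n = 3) in the Y198F arteries, 7.35 ± 1.22 (SD, n = 3) in S205A controls 1 to 3, 24.6 in S205A control 4 and means of 23.2 to 46.7 in the groups outside the numbered libraries. Pdgfra had 25.5 CPM ± 10.8 (SD, n = 3) in Y198F, 8.79 ± 1.81 (SD, n = 3) in S205A controls 1 to 3, 35.0 in control 4 and means of 35.6 to 63.6 in the other full groups. In both genes S205A controls 1 to 3 were the lowest group and Y198F came next. Col5a3 differed from them in that control 4 was low too, with 28.8 CPM beside 26.3 ± 2.23 (SD, n = 3) in controls 1 to 3 and 68.2 ± 20.7 (SD, n = 3) in Y198F. The remaining groups of 3 had means from 66.1 to 98.8 CPM. These libraries differ in ribosomal RNA content as given above, and that difference cannot be told apart from the groups.

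Erdr1x covered a wider range, between groups and within them. It had 26.5 CPM ± 7.04 (SD, n = 3) in Y198F, 9.09 ± 7.74 (SD, n = 3) in the labelled Y198F controls and 0.304 ± 0.265 (SD, n = 3) in the Y308F controls. The labelled Y198F controls ran from 0.228 to 14.5 CPM. S205A controls 1 to 3 had 81.1 ± 20.5 (SD, n = 3), and control 4 had 63.9. S205A mutant 1 had 17.0 CPM and S205A mutants 2 to 4 had 36.8 to 90.2. The wild-type libraries had 18.2 ± 3.41 (SD, n = 3) and the Panx1 knockouts 31.9 ± 7.07 (SD, n = 3). The Y198F mean was therefore lower than the S205A controls but higher than the mean of its own line's controls.

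Unmutated libraries of both lines that the comparison does not use are the 3 labelled Y198F controls and S205A control 4. With 1 library on the S205A side, their values describe these libraries and give no difference between the lines. Of the 12 leading genes higher in Y198F, 11 had higher values in these Y198F controls than in S205A control 4, where 52.9% of all genes did, with a median log2 fold change of 0.71 beside 0.02 for all genes. The largest log2 fold changes there were 1.87 for Cpxm1, 1.44 for Col5a3, 1.19 for Lgi4, 1.13 for Entpd2 and 0.83 for Lama2. Fbn1 was at 0.01, and Klf11, the 1 gene below 0, at -0.31. Of the 12 leading lower genes, 10 were below 0, with a median of -0.38.

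The 7 other unmutated libraries outside the numbered ones are 3 wild types, 3 Y308F controls and S205A control 4. With the labelled Y198F controls set against these 7 as one group, 7 of the 12 higher leading genes were above 0, with a median of 0.06, where 47.2% of all genes were above 0. Col5a3 was then at -0.07, Entpd2 at -0.19, Cpxm1 at 0.73 and Lama2 at 0.24, and 0 of these 4 had an unadjusted edgeR p under 0.05. Of the 12 lower leading genes, 7 were then below 0 and 5 above, with a median of -0.07. The 7 libraries bring in other lines, so S205A control 4 as a single library and the S205A line cannot be told apart. Against its own labelled controls, which lie outside the numbered libraries, Y198F had log2 fold changes from -1.13 to 0.59 for the 12 higher genes, with a median of -0.82. Plxdc2, Fbn1, Col28a1, Gpc3, Cpxm1, Lgi4, Lama2 and Abca8a were lower in Y198F there at an edgeR adjusted p under 0.05. Gm43305 was higher at that threshold. The 12 lower genes had a median of -0.07 there, with 7 below 0 and 5 above. Of these, Gm16867, Gm27177 and Mideas were lower at the same threshold. That comparison shares the Y198F libraries with the one described here, and in it the library number and the mutation cannot be told apart.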

How the data were processed

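The authors deposited whole-number counts per gene for 57010 identifiers in 26 libraries, not normalized. Per the submitters' processing notes, reads were mapped to GRCm39 with STAR 2.7.9a, counted with featureCounts and tested with DESeq2 1.46.0. Per the labels' protocols these were pairs of 150 bases from poly(A) RNA. The authors' deposited comparison table, made with DESeq2, holds a base mean in normalized signal, log2 fold changes, a test score and p-values, and was used for a check; annotation release and strand setting are not given in the sources used here. Of the identifiers, 56310 matched GENCODE vM39.

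The 3 Y198F libraries were tested against S205A controls 1 to 3 with edgeR 4.0.16 in R 4.3.3 (quasi-likelihood test, TMM, filterByExpr, robust dispersion) and Benjamini-Hochberg adjustment over 15879 genes. The calculation was tested on simulated data. The comparisons with S205A mutants and with the 7 other unmutated libraries used the same test. Single values had exact permutation tests. CPM are counts scaled by the normalized library size. Intervals and floors cover counting error only. Leading genes were the 12 per direction with the smallest p under the rule in the text. From each list, members of smallest p or highest level were named; a few further members were chosen after their values were seen. The members and the 36 gene lists were chosen with earlier results of these data known. Alternatives were DESeq2 1.42.0, limma 3.58.1 voom with quality weights, DESeq2 size factors, no filter, the replicate number as a block, other sets of libraries in the fit, and each library left out.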

Additional observations from a re-analysis of the deposited data

How the results depend on the processing

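The count of genes past the threshold in Y198F against S205A controls 1 to 3 was 0 in edgeR with each library left out, with DESeq2 size factors, with 4 controls, and with all 9 numbered libraries or 8 groups in one fit. It was 0 with limma voom too. It was 9 with no filter and 38 with DESeq2. By alternatives chosen after seeing the data, it was 3 in DESeq2 on 26 libraries and 3 to 55 in DESeq2 with each library left out, 19 of them without Y198F replicate 1 and 3 without replicate 3. At an unadjusted p under 0.05 the count of 492, 338 of them higher, became 342, 190 of them higher, without Y198F replicate 3 and 974, 534 of them higher, without S205A control replicate 2. It was 974, 561 of them higher, with limma voom, and 1158, 642 of them higher, with 8 groups and the series as a term. With DESeq2 on 26 libraries it was 1554, of which 647 were higher, so that lower genes outnumbered higher ones there. Against the S205A mutants the count of 0 became 3 with the 2 groups alone, 18 with DESeq2 and 1 with no filter, and stayed 0 with each library left out. The log2 fold change of Panx1 ranged from 0.18 to 1.48 with each library left out. Replicates 1 to 3 of the groups share only their numbers: correlations of same-numbered deviations were -0.07, -0.07 and 0.17. With the replicate block the counts were 0 and 495, and Panx1 was 0.84. Depth limits Panx1, Panx2, Adora2a and 1700008B11Rik, which had few reads in each library.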

Other observations

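Interferon-stimulated genes had lower mean values in Y198F for 13 of 14 tested members, with a median log2 fold change of -0.45 and 0 members at an unadjusted edgeR p under 0.05. Ifit3, an antiviral RNA-binding protein, had 22.9, 19.7 and 22.7 CPM in Y198F and 12.7, 62.9 and 30.7 in S205A controls 1 to 3. The high value was in S205A control 2, and the list's median ranged from -0.86 to 0.37 over the alternatives. Heat shock genes had negative values for 11 of 11 members, with a median of -0.22, which was -0.0020 without S205A control 1. They summed to 3794 CPM in that library and to 1792 to 2610 CPM in the other 5. The chaperone Hspa8 had 592, 926 and 979 CPM against 1511, 1044 and 826, so the groups overlapped. Genes of the positive arm of the clock had a median of 0.43 over 5 tested members, which ranged from 0.29 to 0.87 over the alternatives. The -0.46 of the clock repressors ranged from -0.92 to -0.10. In the positive arm 0 members had an unadjusted p under 0.05.

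Among macrophage genes, 10 of 11 tested members had higher means in Y198F, with a median of 0.54, which ranged from -0.41 to 1.06. Their summed level was 15.6, 45.6 and 81.7 CPM in Y198F and 29.0, 18.5 and 47.5 in the controls. Erythroid genes summed to 389 CPM in Y198F mutant 3 and to 31.3 to 108 CPM in the other 5 libraries. That library also had the highest white adipocyte sum. Its part in the values above was not tested beyond the values without it.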
